A study of Mus musculus with 8 samples.

Results

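Incubation units of the kind built for a space flight, kept on the ground, were compared with ordinary culture dishes in mouse bone marrow stromal cells. These are the adherent cells of the marrow that can form bone, cartilage and fat. Samples were chosen by their titles, which mark 2 arrays as ground control in growth or osteoinductive medium and 2 as laboratory control in the same media. They make up 4 of the 8 samples of the series, and the other 4 flew.

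Both sides of the comparison were at normal gravity. The cells came from C57BL/6 mice aged 6 to 8 weeks, were flushed from femurs and tibiae, expanded as adherent cultures and seeded on Skelite, a scaffold made of calcium phosphate. In the ground hardware the cell-loaded scaffolds sat in Kayser Italia incubation units served by hand. In the dishes they lay in the wells of a culture plate under routine laboratory conditions. Growth medium was Coon's modified Ham's F12 with fetal calf serum, glutamine and antibiotics. Osteoinductive medium directs such cells towards bone, and its composition is not stated in the labels. Each medium and condition has 1 array, so the 4 arrays form 2 pairs matched by medium. No label ties an array to its own animal or culture, so the spread behind each p-value is that between these 4 arrays and may be technical. All groups share the mouse strain and the scaffold, and how long the scaffolds were kept is not stated. What differs between unit and dish, such as medium volume, gas exchange or handling, was not measured here.

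The quantity compared is the log2 intensity of a gene's probe set, and a difference is ground hardware minus dish on the log2 scale. The median intensity of these 4 arrays lay between 180.9 and 183.6. Of 21 measured stromal cell genes 17 were bright enough to be tested, and Lepr, Nes, Tcf21 and Angpt1 were not. Lepr, the leptin receptor gene that marks stromal cells in the marrow, lay between 5.04 and 5.42 on the 4 arrays. The platelet-derived growth factor receptor Pdgfrb lay at 10.87 and 10.94 in growth medium (dish, then hardware) and at 11.08 and 11.04 in osteoinductive medium. The mesenchymal transcription factor Prrx1 lay at 11.22, 11.32, 10.90 and 10.94 in the same order. Of the 22 measured macrophage markers 9 were bright enough to be tested, and the leukocyte gene Ptprc was not among them. Of 25 measured osteoblast genes 19 were tested, and neither Sp7 nor Ibsp was.

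Some background helps to read the genes named below. Cells sense low oxygen through prolyl hydroxylases, which mark hypoxia-inducible factor for destruction while oxygen is present. When oxygen falls, the factor binds a short core sequence in DNA and turns on genes for glucose uptake, glycolysis, mitophagy and new vessels, together with the hydroxylases themselves. Marrow cells live in a tissue with little oxygen, and this programme is well known in them. A separate programme raises the genes of chromosome segregation and cell division late in the cell cycle, so that their transcripts mark dividing cells. In a bulk sample, a change in the share of such cells and a change in RNA per cell cannot be told apart.

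Few genes passed the test. With limma and Benjamini-Hochberg adjustment over 13083 genes, 7 genes (0.0535%) differed between ground hardware and dish at an adjusted p under 0.05. Of these 6 (0.0459%) fell in the hardware, namely Bnip3, Nrn1, Spred2, Try5, Gprc5b and Tmem45a, and 1 (0.00764%) rose, the small RNA Rny1. The test rests on 1 residual degree of freedom per gene, because the error is the disagreement between the media. In limma this error is moderated by a prior pooled over all tested genes, worth 11.86 degrees of freedom. Each SE and p-value therefore rests mostly on that pooled spread and less on the gene's own. On simulated data of the same design the share of false calls exceeded the threshold in most draws. More of the 7 calls may thus be false than the threshold allows. When all 8 arrays set the error, 0 genes passed, with a smallest adjusted p of 0.344, while 212 genes were lower and 53 higher at an unadjusted p under 0.05.

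The difference between hardware and dish was small in size. Over all tested genes its standard deviation was 0.14 with growth and 0.15 with osteoinductive medium, and 0 genes moved by more than 1 log2 unit in either medium. For microgravity minus ground hardware, which shares the hardware arrays, the same spread was 0.44 and 0.39, and 356 and 343 genes lay beyond 1 unit. Across genes the differences in the 2 media, which share no array, correlated weakly (Pearson r = 0.17 over 13083 genes, which are not independent replicates).

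**Figure D1:**
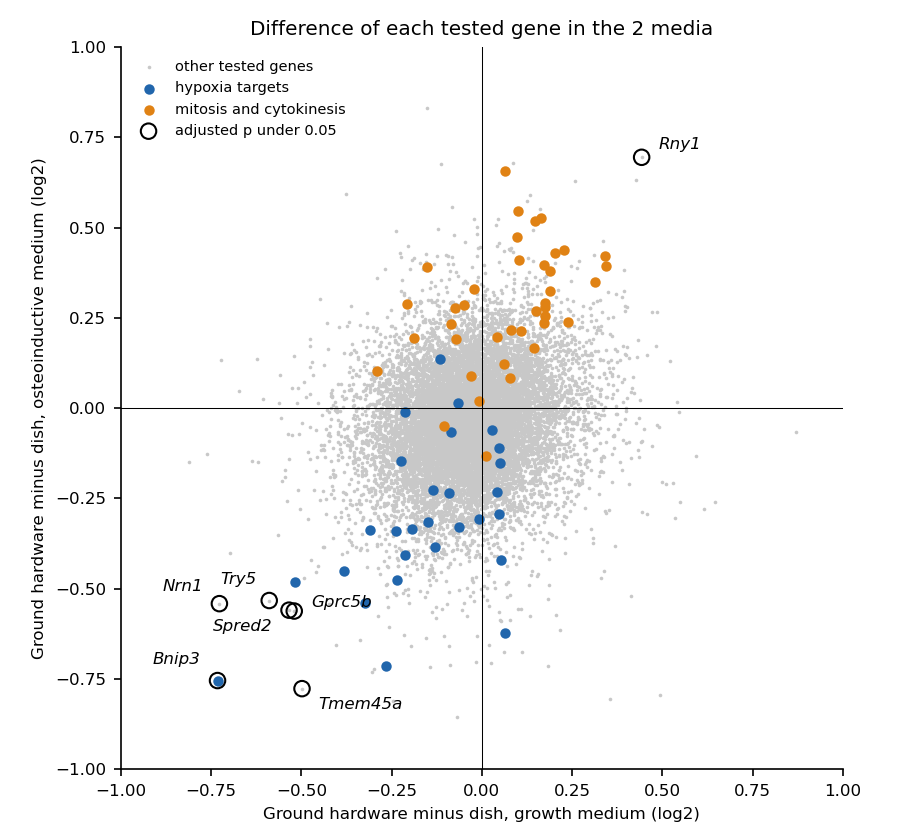
Each point is 1 of 13083 tested genes, with the difference of ground hardware minus dish (log2) in growth medium on the x axis and in osteoinductive medium on the y axis. Most genes crowd around 0, the 7 circled genes passed the test, hypoxia targets (blue) lie mainly below 0 and mitosis genes (orange) mainly above.

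Bnip3 gave the largest of the differences that passed. It encodes a mitochondrial protein of mitophagy and is a classical target of hypoxia-inducible factor. Its log2 intensity in growth medium was 10.21 in the dish and 9.48 in the hardware, and in osteoinductive medium 11.34 in the dish and 10.59 in the hardware. The hardware value was lower in both pairs, while across media the groups overlapped, since Bnip3 was higher in osteoinductive medium. The difference was -0.74 (SE 0.08, n = 2 arrays a side, limma adjusted p = 0.008), so that the dish level was 1.67 times the hardware level. A separate probe set for Bnip3 gave -0.67 and -0.54 in the 2 media. After quantile normalization Bnip3 was the 1 gene that passed, at an adjusted p of 0.0486.

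The other genes that fell have diverse roles. Nrn1 encodes neuritin, a membrane-anchored protein known from growing neurites, and went from 7.77 to 7.04 in growth medium and from 8.57 to 8.03 in osteoinductive medium. Tmem45a, which encodes a transmembrane protein, went from 8.66 to 8.16 and from 10.08 to 9.31. Gprc5b, an orphan G protein-coupled receptor, went from 8.03 to 7.51 and from 10.10 to 9.53. For each of these genes the hardware array was the lower of its pair, and their differences were -0.63, -0.64 and -0.54 (limma adjusted p from 0.037 to 0.041). Try5, a trypsinogen with close paralogs that its probes may share, differed by -0.56. Spred2, an inhibitor of ERK signalling, differed by -0.55, but its other probe set gave -0.14, and the mean of both did not pass (limma adjusted p = 0.197).

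Some of these values moved when single arrays were left out of the fit over all 8 arrays. In that fit the difference between media on the other arrays, flight included, stands in for the missing array. On the ground and in flight it was 0.89 and 0.07 for Nrn1, 1.71 and 2.66 for Try5, and 1.3 and 1.9 for Tmem45a. It was 1.12 and 1.12 for Bnip3, 2.05 and 2.09 for Gprc5b, and 0.17 and 0.22 for Spred2. A shift therefore mixes the array left out with the flight arrays. When 1 array was left out of the fit over 8 arrays, Nrn1 differed by -0.30 without the growth hardware array, -0.42 without the osteoinductive dish and -0.97 without the osteoinductive hardware array. Try5 differed by -0.23 without the growth dish, -0.26 without the osteoinductive hardware array, and -0.86 and -0.90 without the growth hardware array and the osteoinductive dish. Tmem45a differed by -0.33 without the osteoinductive hardware array and -0.51 without the growth dish. It was -0.76 without the osteoinductive dish and -0.95 without the growth hardware array. Bnip3, Gprc5b and Spred2 stayed between -0.75 and -0.73, -0.57 and -0.51, and -0.57 and -0.52, and none of the 6 passed with an array left out (limma).

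Rny1 was the single gene that rose. It encodes a Y RNA, a short non-coding RNA bound by the Ro protein. Its log2 intensity was 8.37 in the dish and 8.82 in the hardware in growth medium, and 8.29 and 8.99 in osteoinductive medium. Both hardware values lay above both dish values, with a difference of 0.57 (SE 0.09, n = 2 arrays a side, limma adjusted p = 0.048). It did not pass in the fit over 8 arrays, where it was 0.30 without the osteoinductive hardware array and up to 0.84 without the others. The difference of Rny1 between media, 0.04 on the ground and -0.52 in flight, enters those values. Rny3, the other Y RNA tested, was 0.55 higher in growth medium and 0.26 lower in osteoinductive medium.

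Below the threshold, the 12 deepest and 12 highest differences with the same sign in both media were examined by name. Besides those that fell, the lower side held Egln3, Dpt, Tnfrsf23, Abhd18, Marcksl1 and Ly96, with adjusted p from 0.055 to 0.095 (limma). Abhd18 was tested only through the dishes: its mean was 7.41 there and 6.95 in the hardware, below the log2 intensity of 7.08 that the mean of the 4 arrays had to exceed. Egln3 encodes an oxygen-dependent prolyl hydroxylase, and Dpt the matrix protein dermatopontin. The higher side held 5 genes of the mitotic spindle, kinetochore and cytokinesis, namely Ect2, Kif11, Knstrn, Cenpq and Bub1, whose differences ran from 0.33 to 0.40 with adjusted p from 0.170 to 0.214 (limma). It also held the histone gene H4c14, the amino acid transporter Slc38a5, the cardiac actin gene Actc1, the sulfotransferase gene Hs3st3b1, and Tns1, whose other probe sets differed by -0.23 to 0.22. Baiap2l1 was listed there at 0.53, but none of the transcripts given for that probe set was matched to Baiap2l1, and the probe set that does match it differed by 0.01, so this value is not read as that gene's.

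**Figure D2:**
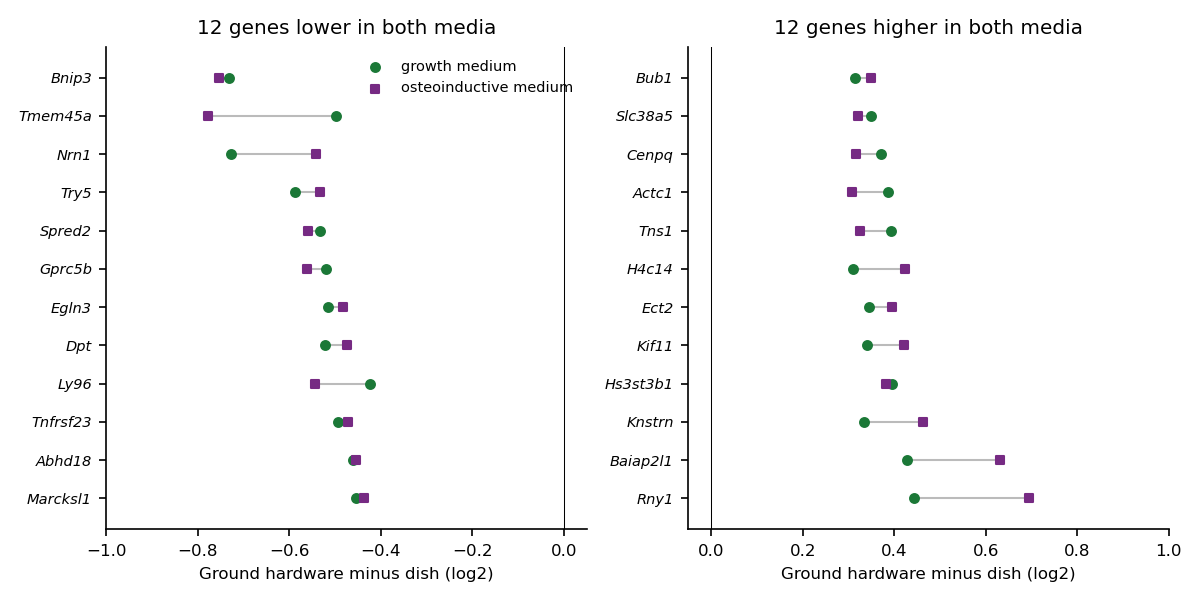
Differences of ground hardware minus dish (log2) for the 12 lowest and 12 highest named genes, in growth medium (circles) and osteoinductive medium (squares). The lower genes run from -0.74 for Bnip3 to -0.44 for Marcksl1 on average, and the higher genes from 0.33 for Bub1 to 0.57 for Rny1; the probe set listed as Baiap2l1 is not read as that gene.

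Hypoxia targets were lower in the hardware. This list, like the other gene lists, was chosen with earlier results of these data known, so its counts are descriptive and no independent check. Of 30 listed genes 29 were measured and 28 were tested. Over all tested genes 8.46% were lower and 2.56% higher at an unadjusted p under 0.05. Of the 28 hypoxia targets 16 were lower at that threshold and 0 higher, and 1 of them, Bnip3, passed after adjustment. Lower in both media were 19 of the 28, against 39.2% of all tested genes, and 0 were higher in both, against 18.1%. The list's median difference in growth medium was -0.13 and that in osteoinductive medium -0.32, where the median over all tested genes was -0.03 and -0.04.

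The members of the oxygen sensor itself were among the lowest. Egln3 went from 9.74 to 9.22 in growth medium and from 10.56 to 10.07 in osteoinductive medium (difference -0.50, SE 0.08, limma adjusted p = 0.055). Egln1, the main prolyl hydroxylase of the pathway, went from 9.59 to 9.26 and from 10.41 to 9.87 (difference -0.43, SE 0.09, limma adjusted p = 0.139). The hardware array was the lower one in both pairs of both genes, and neither passed.

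Targets with metabolic roles were lower too. Pdk1, the kinase that keeps pyruvate out of mitochondria, went from 9.39 to 9.01 and from 9.54 to 9.09. The glucose transporter gene Slc2a1 went from 11.71 to 11.47 and from 12.26 to 11.79. Their differences of -0.42 and -0.36 did not pass after adjustment (limma adjusted p = 0.136 and 0.218). Among the 17 tested genes of glycolysis, 4 (23.5%) were lower at an unadjusted p under 0.05 (Ldha, Pgk1, Pfkl and Pgam1) and 1 (5.88%) was higher (Aldoc), against 8.46% and 2.56% of all tested genes. After quantile normalization 2 were lower and 1 higher. Ldha, which makes lactate from pyruvate, was lower by about the same amount in both media, at -0.30 and -0.28.

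Secreted products and matrix enzymes of the hypoxia list split by medium. Adm, which encodes the vasodilator adrenomedullin, differed by -0.27 in growth medium and -0.72 in osteoinductive medium. Lox, which cross-links collagen, differed by 0.06 and -0.62, and Ndrg1 by 0.05 and -0.42. In these genes the value in osteoinductive medium carried the mean. P4ha2, a collagen prolyl hydroxylase, was lower in both media, at -0.21 and -0.41. Vegfa, the vascular growth factor that is the best-known target of the pathway, differed by 0.03 and -0.06, which is within the spread between media.

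The hypoxia count held in part under other settings. After quantile normalization 11 of the 28 were lower at an unadjusted p under 0.05 and 0 higher, where 3.9% of all genes were lower. With the error from all 8 arrays 10 were lower and 0 higher, where 1.62% of all genes were lower. In the fit over 8 arrays the list median of -0.19 became -0.30 without the growth hardware array. It lay between -0.25 and -0.17 without each of the others. The difference between media in flight enters these values.

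The hypoxia list also differed between the media. In the comparison of osteoinductive with growth medium, which uses the same 4 arrays, 5.99% of all genes passed as higher and 6.1% as lower (limma, adjusted p under 0.05). Of the 28 hypoxia targets 15 passed as higher and 0 as lower. Bnip3 was 1.12 higher in osteoinductive medium and Egln3 0.83 higher.

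The promoters of Bnip3 and Egln3 are shown because these genes had the lowest values of the list. Each run covers 250 bases before to 50 after the start, 5′ to 3′ on the gene's strand, from RefSeq on build GRCm38.p6. Capitals mark the core letters of the hypoxia response element, ACGTG or GCGTG, on either strand. The Bnip3 promoter at chr7:138909457-138909756 (minus strand) holds 5 matches, of which an ACGTG on each strand overlap. The Egln3 promoter at chr12:54203825-54204124 (minus strand) holds 1.
Bnip3: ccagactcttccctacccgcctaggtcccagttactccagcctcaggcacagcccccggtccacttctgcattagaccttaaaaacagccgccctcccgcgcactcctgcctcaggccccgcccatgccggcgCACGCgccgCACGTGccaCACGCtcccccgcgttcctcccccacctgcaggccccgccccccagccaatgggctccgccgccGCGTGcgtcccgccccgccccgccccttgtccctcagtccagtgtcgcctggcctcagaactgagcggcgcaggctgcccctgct
Egln3: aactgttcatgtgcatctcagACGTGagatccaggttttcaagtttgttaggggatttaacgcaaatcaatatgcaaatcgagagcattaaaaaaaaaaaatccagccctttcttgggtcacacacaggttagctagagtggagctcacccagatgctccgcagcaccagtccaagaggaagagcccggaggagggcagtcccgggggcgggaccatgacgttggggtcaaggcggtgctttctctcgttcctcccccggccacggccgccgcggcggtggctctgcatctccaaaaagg
These letters are common, and a match is a description, not a site. They occur on either strand in 43.8% of the 32851 promoters of the table and in 27 of the 32 promoters (84.4%) of the 23 hypoxia targets that the table holds. The promoters of the mitosis list hold them nearly as often, in 27 of 37 (73%). ACGTG alone separates the lists more, with 19.6% of all promoters, 59.4% of those of the hypoxia list and 24.3% of those of the mitosis list.

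**Figure D3:**
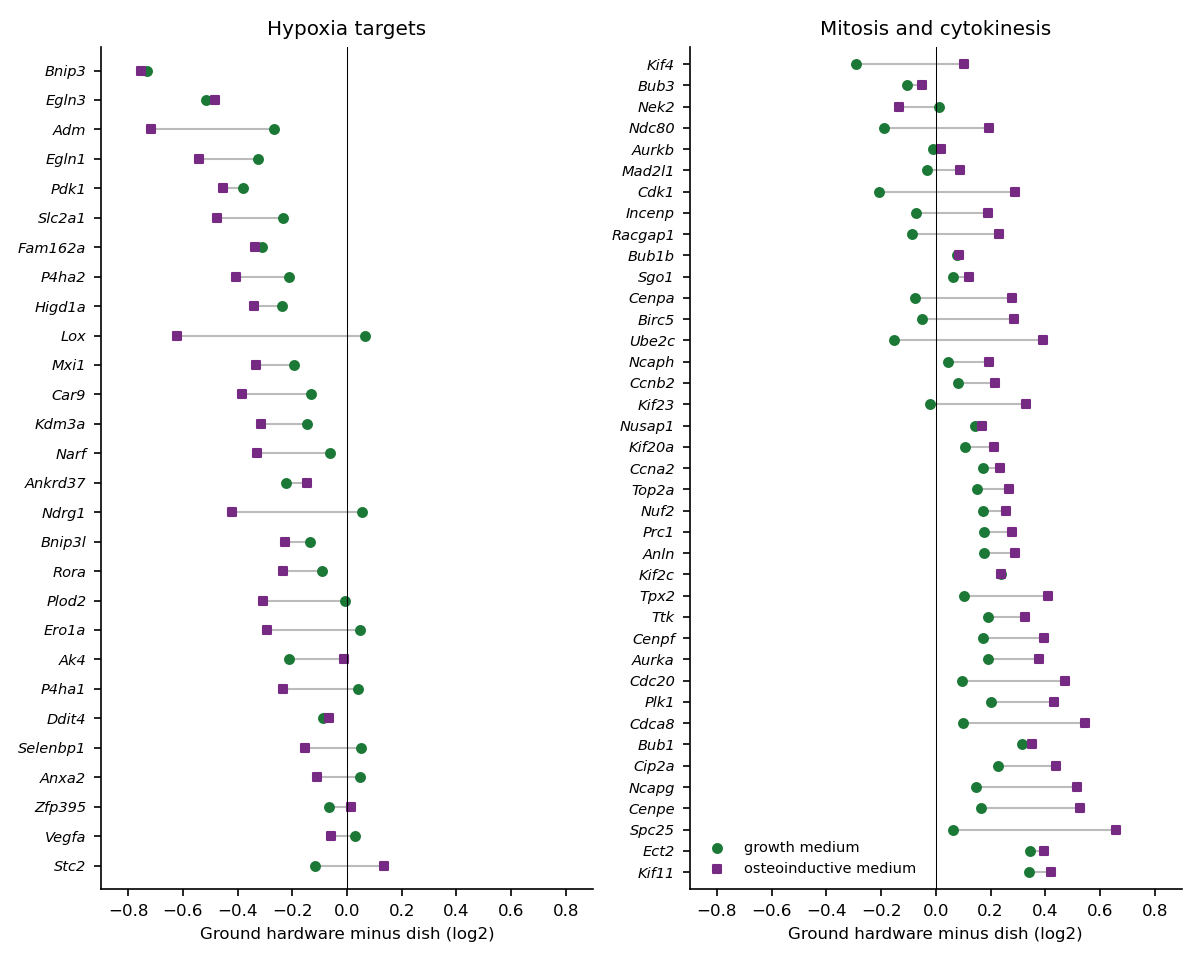
Differences of ground hardware minus dish (log2) for the 28 tested hypoxia targets and the 39 tested genes of mitosis and cytokinesis, in growth medium (circles) and osteoinductive medium (squares). 19 of the 28 hypoxia targets lie below 0 in both media, against 39.2% of all tested genes. Of the 39 mitosis genes 26 lie above 0 in both, against 18.1%.

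Genes of mitosis and cytokinesis were higher in the hardware. Their list too was chosen with earlier results of these data known, so its counts are descriptive. Of 39 tested members 20 were higher at an unadjusted p under 0.05 and 0 lower, against 2.56% and 8.46% of all tested genes, and 0 passed after adjustment (limma). Higher in both media were 26, against 18.1% of all tested genes, and 1 was lower in both, against 39.2%. The median stood at 0.10 with growth medium and at 0.28 with osteoinductive medium. After quantile normalization 23 were higher, where 4.07% of all genes were, and with the error from all 8 arrays 8 were higher, where 0.405% of all genes were.

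Kif11 and Ect2 had the highest mean differences of the list, and Kif4, a kinesin of the spindle midzone, the lowest at -0.09. They and Bub1 are described because they led the list in the medium where each moved less. Kif11, the kinesin that separates the spindle poles, went from 8.31 in the dish to 8.65 in the hardware in growth medium and from 7.93 to 8.35 in osteoinductive medium. Ect2, which starts the cleavage furrow, went from 9.27 to 9.61 and from 8.87 to 9.26. Bub1, a kinase of the spindle checkpoint, went from 8.50 to 8.81 and from 7.98 to 8.33. In all 3 genes the hardware array was the higher of each pair, and both media moved by a like amount, with mean differences of 0.38, 0.37 and 0.33 (SE 0.08 each).

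Other members differed mainly in osteoinductive medium. Spc25, a kinetochore subunit, differed by 0.06 with growth medium and by 0.66 with osteoinductive medium. Cdca8, a subunit of the chromosomal passenger complex, differed by 0.10 and 0.55. Cdk1, the kinase that starts mitosis, was 0.21 lower in growth medium and 0.29 higher in osteoinductive medium, and Aurkb differed by -0.01 and 0.02. The list median depended on single arrays: it was 0.05 without the osteoinductive hardware array and 0.36 without the growth hardware array.

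Genes of DNA replication did not show the same count. Of 32 tested members, 1 (3.1%) was higher (Mcm3) and 1 (3.1%) lower (Fen1) at an unadjusted p under 0.05. Of all tested genes 2.56% were higher and 8.46% lower. After quantile normalization 3 members were higher and 0 lower, where 4.07% and 3.9% of all genes were. The growth and osteoinductive medians were -0.11 and 0.09. The difference between the replication and mitosis lists was not tested.

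The promoters of Ect2 and Kif11 are shown for the cell cycle genes homology region, a late cell cycle element with the letters TTTGAA, in capitals on either strand. The Ect2 promoter lies at chr3:27153829-27154128 (minus strand) and holds 2 matches, and that of Kif11 at chr19:37376132-37376431 (plus strand) holds 1, read on the other strand.
Ect2: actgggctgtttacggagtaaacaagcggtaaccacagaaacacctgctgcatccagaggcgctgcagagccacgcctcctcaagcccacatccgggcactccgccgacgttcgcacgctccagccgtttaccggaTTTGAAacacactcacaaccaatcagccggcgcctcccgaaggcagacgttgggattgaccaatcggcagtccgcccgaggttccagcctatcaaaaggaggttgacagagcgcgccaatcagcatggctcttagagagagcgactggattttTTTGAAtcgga
Kif11: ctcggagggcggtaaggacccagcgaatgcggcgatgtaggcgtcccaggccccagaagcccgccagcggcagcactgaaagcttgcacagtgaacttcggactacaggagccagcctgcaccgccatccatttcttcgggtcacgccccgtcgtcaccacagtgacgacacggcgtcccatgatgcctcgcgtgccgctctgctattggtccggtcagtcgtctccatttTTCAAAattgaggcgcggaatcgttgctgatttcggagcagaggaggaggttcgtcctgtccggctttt
The letters occur in 17.9% of all promoters of the table, in 27 of the 37 promoters (73%) of the 34 mitosis genes it holds, and in 3 of the 32 promoters (9.38%) of the hypoxia list.

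A group of microRNAs from a single cluster was lower in the hardware. The miR-17-92 cluster on chromosome 14 (chr14:115043671-115044506, plus strand) encodes 6 hairpins on a common transcript and is known for promoting proliferation. Its hairpins 17, 19a and 19b-1 were added after their values had been seen. The mature forms below are shown because 4 of them fall into 2 pairs with the same seed, bases 2 to 8, in capitals. miR-17-5p and miR-20a-5p share one seed, miR-19a-3p and miR-19b-3p share another, and miR-18a-5p stands alone (RefSeq, GRCm38.p6).
mmu-miR-17-5p: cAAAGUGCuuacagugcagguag
mmu-miR-20a-5p: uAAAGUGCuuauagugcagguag
mmu-miR-18a-5p: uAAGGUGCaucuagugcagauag
mmu-miR-19a-3p: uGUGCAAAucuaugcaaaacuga
mmu-miR-19b-3p: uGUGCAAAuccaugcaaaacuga
Mir20a went from 8.24 to 7.55 in growth medium and from 7.88 to 7.48 in osteoinductive medium, so that both hardware values lay below both dish values. Its difference was -0.55 (SE 0.09, limma adjusted p = 0.055). Mir19b-1 differed by -0.43 and -0.29 in the 2 media, Mir18 by -0.37 and -0.30, and Mir17 by -0.28 and -0.17. All 5 measured hairpins were lower in both media, as were 31.5% of the 162 tested small RNAs and 39.2% of all tested genes. Mir19a, at -0.58 and -0.47, was too dim to be tested, and Mir92-1 was not analysed here. None of the tested 4 passed after adjustment (limma adjusted p from 0.055 to 0.357), and probes on a hairpin do not tell its precursor from the mature form.

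The host transcript and the related cluster did not show this pattern, though the difference was not tested. The host gene Mir17hg differed by 0.03 and 0.26. The hairpins of the related cluster on another chromosome differed by -0.17 and 0.29 (Mir106b), -0.04 and 0.28 (Mir25), and 0.04 and 0.03 (Mir93). Over all 162 tested small RNAs 17 (10.5%) were lower and 14 (8.64%) higher at an unadjusted p under 0.05, against 8.46% and 2.56% of all tested genes. On the higher side the small nucleolar RNA Snora73a, which takes part in ribosomal RNA processing, differed by 0.31.

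A joint list of glucocorticoid-responsive genes and metallothioneins held more lower than higher members. Of 21 tested members 10 (47.6%) were lower and 2 (9.52%) higher at an unadjusted p under 0.05, against 8.46% and 2.56% of all tested genes, and 0 passed after adjustment (limma). The growth median was -0.01 and the osteoinductive median -0.29, a gap that was not tested. The median over both media was -0.18. Without the osteoinductive hardware array it was -0.03 in the fit over 8 arrays, where the difference between media in flight enters the value. Fkbp5, a co-chaperone of the glucocorticoid receptor, differed by 0.05 in growth medium and -0.59 in osteoinductive medium. Tsc22d3, which encodes the glucocorticoid-induced leucine zipper protein, differed by 0.05 and -0.56. Glul, the glutamine synthetase gene, differed by -0.31 and -0.73. The metallothionein genes, whose products bind metals, did not follow the gap between the list's medians. Mt1 differed by -0.22 and -0.18, Mt2 by -0.53 and -0.08, and Mt3 by 0.30 and 0.18. Between the media, 5.99% of all tested genes passed as higher in osteoinductive than in growth medium and 6.1% as lower (limma, adjusted p under 0.05). Of the same 21 genes 14 passed as higher, Fkbp5 by 2.23, and 0 as lower.

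Other lists had shares lower in both media like that of the hypoxia targets (67.9%). The share was 76.5% for glycolysis, 75% for heat shock chaperones and 66.7% for the circadian clock. At an unadjusted p under 0.05 their lower shares were 23.5%, 25% and 16.7%, below the 57.1% of the hypoxia targets. Of 25 tested lysosome and autophagy genes 21 (84%) were lower in both media, against 39.2% of all tested genes, and 5 (20%) were lower at an unadjusted p under 0.05, against 8.46%, among them Gla, Wipi1 and Npc1. Of 31 subunits of the respiratory chain and ATP synthase 6 (19.4%) were lower at that threshold. After quantile normalization 1 of the 31 was, a share no larger than the 3.9% over all genes. Igfbp7 and Igfbp5, which bind insulin-like growth factors, differed by -0.35 and -0.18 in growth medium and by -0.32 and -0.37 in osteoinductive medium. Of 25 genes of the unfolded protein response 13 (52%) were higher in both media, against 18.1% of all tested genes. At an unadjusted p under 0.05, 2 (8%) were higher, Hyou1 and Ddit3, against 2.56%.

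Among bone and matrix lists the shares at an unadjusted p under 0.05 lay on both sides of those over all tested genes. Of 19 tested osteoblast genes 1 (5.26%), Bmp2, was lower at an unadjusted p under 0.05 and 0 were higher, where 8.46% and 2.56% of all tested genes were. Alpl, the alkaline phosphatase gene of early osteoblasts, differed by 0.28 and -0.10 in the 2 media, and Col1a1, the main collagen of bone, by 0.08 and 0.02. Of 31 collagens and collagen-processing genes 2 (6.45%) were lower (P4ha2 and Lox, both also hypoxia targets) and 2 (6.45%) higher (Col11a1 and P4ha3). Of 21 tested matrix proteases and inhibitors 3 (14.3%) were lower and 1 (4.76%) higher. Of 27 other tested matrix genes 2 (7.41%) were lower and 1 (3.7%) higher. The medians of these 2 lists were 0.02 and 0.05 in growth medium (-0.03 over all tested genes). In osteoinductive medium they were -0.11 and -0.12 (-0.04 over all tested genes). Postn, which encodes the matrix protein periostin, differed by -0.02 and -0.54.

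**Figure D4:**
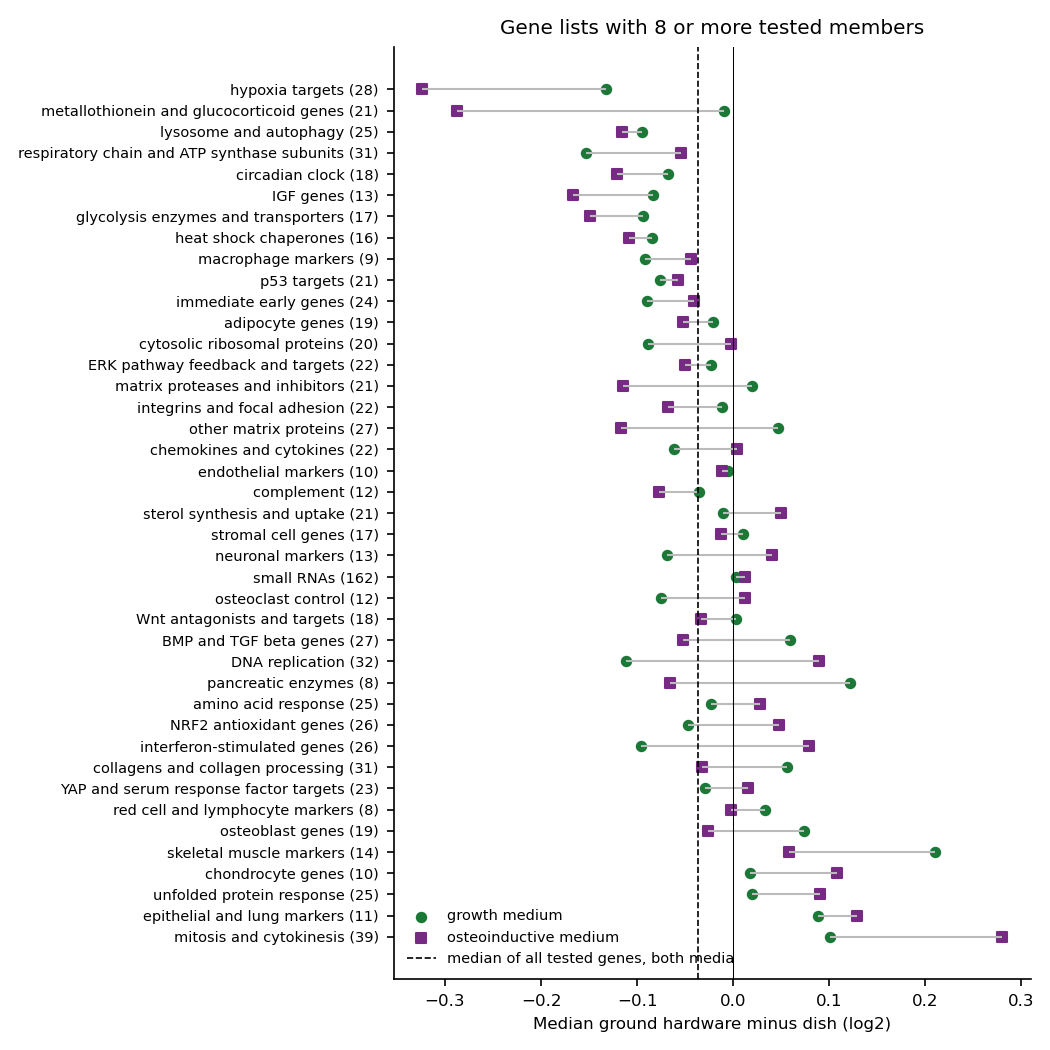
Median difference of ground hardware minus dish (log2) of each gene list with 8 or more tested members (number in brackets), in growth medium (circles) and osteoinductive medium (squares). In osteoinductive medium hypoxia targets sit lowest at -0.32 and mitosis genes highest at 0.28, while in growth medium respiratory chain subunits sit lowest at -0.15 and skeletal muscle markers highest at 0.21. The dashed line marks the median of all tested genes in both media together, -0.04.

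Other measured features moved alongside these lists, and their part in the results was not tested. Brighter genes were lower in the hardware: the median difference was 0.01 in the dimmest of 4 equal bins of genes and -0.06 in the brightest, and it was 0.02 and -0.01 after quantile normalization. The summed intensity of the 22 measured macrophage markers was 5465 in the dish and 5278 in the hardware in growth medium, and 5644 and 4895 in osteoinductive medium, with 3 of the 9 tested (33.3%) lower at an unadjusted p under 0.05, against 8.46% of all tested genes. That of the 21 measured skeletal muscle markers was 3991 and 4288 in growth medium and 4313 and 4358 in osteoinductive medium, with 5 of the 14 tested (35.7%) higher, against 2.56%. These markers are dim, with a median log2 intensity from 7.13 to 7.45 on the 4 arrays. In the dimmest bin of genes 5.38% were higher. The defining muscle gene Myog was too dim to be tested.

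Differences in flight took another size when read against the other ground control. They share arrays and were not tested against each other. The median of the hypoxia targets in microgravity was -0.24 against the ground hardware and -0.57 against the dishes. That of the mitosis genes was -1.16 against the hardware and -1.02 against the dishes, and the median over all genes was -0.10 and -0.16. In growth and osteoinductive medium Bnip3 was at 9.42 and 10.42 in microgravity, and at 9.51 and 10.76 on the flight centrifuge. Against the ground hardware of the same medium these values differed by -0.16 to 0.17, and against the dish by -0.92 to -0.58. Of the 12 named lower genes, chosen as low in the hardware, 12 were above it on the centrifuge and 7 in microgravity. Against the dishes 7 and 9 of them were lower (means over both media). Bub1 in microgravity was at 6.75 and 6.50, below both ground conditions.

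**Figure D5:**
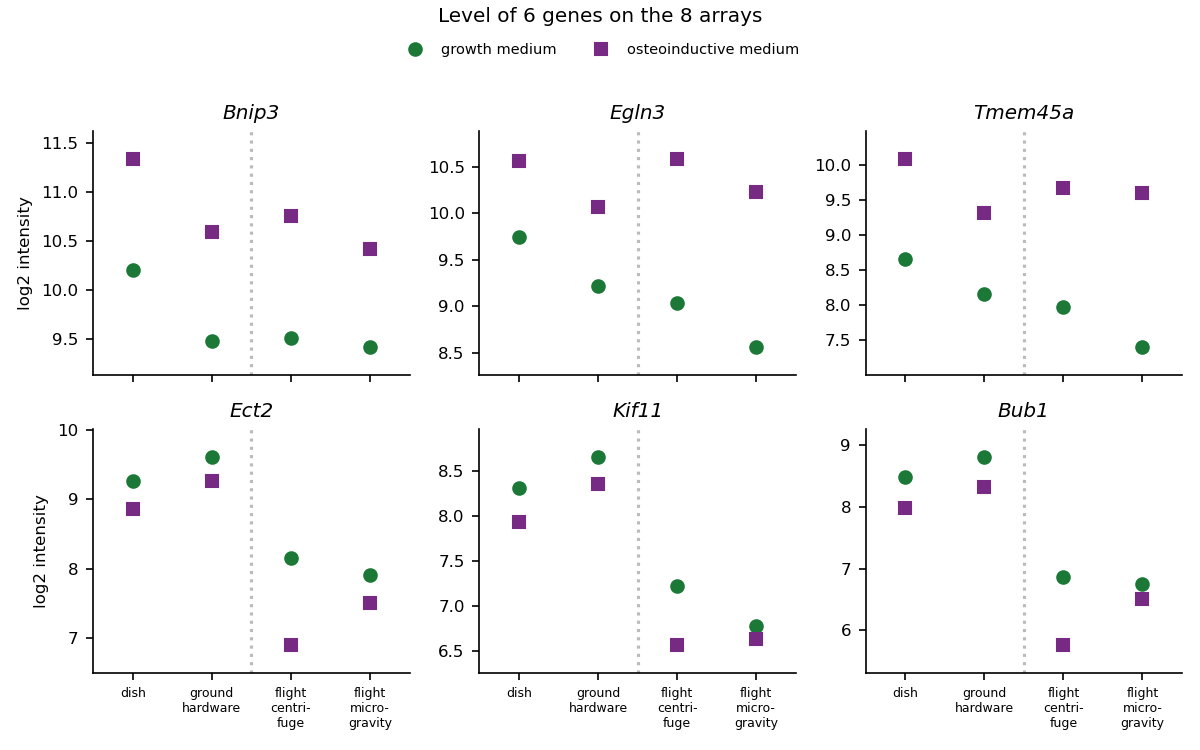
Log2 intensity of Bnip3, Egln3 and Tmem45a (top) and of 3 mitosis genes (bottom) on all 8 arrays, by condition (x axis) and medium (circles, growth; squares, osteoinductive), with 1 array per point. Bnip3 in ground hardware lies near both flight conditions and below the dish. Egln3 in osteoinductive medium is at 10.58 on the centrifuge, near the dish at 10.56 and above the hardware at 10.07. In growth medium Egln3 and Tmem45a in microgravity, at 8.57 and 7.41, lie below the hardware, at 9.22 and 8.16. Ect2, Kif11 and Bub1 are higher on both ground conditions than in flight.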

How the data were processed

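Each sample's total RNA went onto 1 array after amplification and biotin labelling, per the labels. The authors deposited linear intensities. RMA and GCRMA are named, per the submitters' processing notes, without a statement of which was used, with versions and genome build not given in the sources used here. Log2 intensities were used as deposited. The annotation gave 1 gene for 21789 of 35557 probe sets, several for 1621 and none for 12147; identifiers of 21698 matched RefSeq (GRCm38.p6, used for names and promoter sequences). The probe set with the highest mean stood for a gene. Genes whose mean over the 4 arrays was over a log2 intensity of 7.08, the 40th percentile among probe sets, were tested, 13083 of 19938.

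Samples were grouped by title. For the flight centrifuge arrays the gravity label reads microgravity, while title and description place them on the centrifuge. The titles were followed. Condition and medium were fitted with limma 3.58.1 in R 4.3.3 (lmFit, eBayes), two-sided, with Benjamini-Hochberg adjustment and a threshold of 0.05. The fit was tested on simulated data of the same design, where the share of false calls exceeded the threshold in most draws. Differences within a medium have no test. Named genes were the 12 lowest and 12 highest by the smaller of both media's differences, those that passed first, and up to 4 members per list by the same ranking; further members of the main lists were named after their values were seen. The symbol rule for small RNAs was narrowed after it had taken in protein genes. Members and the 41 gene lists were chosen with earlier results of these data known. Listed genes without a probe set were not analysed here. The number of arrays limits the precision.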

Additional observations from a re-analysis of the deposited data

Results flagged for a closer look

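These 10 genes had opposite differences in the 2 media, and the difference between media was not tested, since each medium has 1 array a side. The value given is hardware minus dish in growth medium minus the same in osteoinductive medium. Genes lower in the hardware in growth medium and higher in osteoinductive medium were the interferon-induced Ifit3b (-0.97) and chemokine Cxcl10 (-0.65), the class I histocompatibility gene H2-Q5 (-0.65), the myeloid receptor gene Cd300lb (-0.75) and the fucosyltransferase gene Fut11 (-0.65). The probe set read for Fut11 had no transcript matched to that gene, and its other probe set differed by -0.25 and 0.02. Genes with the reverse pattern were the serine protease inhibitor gene Serpina3n (1.29), Ctla2a (1.16), the acetylcholine receptor gene Chrna1 (0.93), Nat8l (0.79) and the long non-coding RNA Tug1 (0.75). Some of these values are dim. Ctla2a lay at 5.87 and 6.22 in growth medium (dish, then hardware), Serpina3n at 6.73 in the growth dish and Ifit3b at 6.62 in the osteoinductive dish, below the log2 intensity of 7.08 that a gene's mean over the 4 arrays had to exceed. Ctla2a and Serpina3n were tested only through osteoinductive medium and Ifit3b only through growth medium, so their differences in the other medium are uncertain.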

How the results depend on the processing

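The count of 7 genes that passed (limma, adjusted p under 0.05) became 11 with 32 added before log2, 12 with a filter at the 60th percentile, 14 with the mean of a gene's probe sets, 16 with an intensity trend in the prior variance, and 1 after quantile normalization. It became 0 in the fit over all 8 arrays, 0 with no term for medium and 0 with no filter on dim genes. At an unadjusted p under 0.05 these last 3 gave 212, 195 and 954 lower genes and 53, 85 and 548 higher ones. Leaving out each of the 4 arrays in turn, in the fit over 8 arrays, gave 0 to 0 genes, with 93 to 188 lower and 30 to 69 higher at an unadjusted p under 0.05. The smallest adjusted p over all these settings ran from 6.6e-04 to 1.00. Without a medium term the difference between media enters the error. After quantile normalization the unadjusted calls split into 510 lower and 532 higher, against 1107 and 335 before.

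The 12 named lower genes kept their sign in 165 of 165 values over these settings and single media, and the 12 higher ones in 164 of 165. The exception was Tns1 at -0.003 with the mean of its probe sets. The signs in single media were fixed by choosing genes with the same sign in both. Several settings change only the error or the filter and return the same difference, so these counts are no separate check. The main comparison already pairs the arrays by medium; a block by replicate number could not be added, since each group has 1 array. Among the 7 genes that passed, leaving out 1 array moved Nrn1, Try5, Tmem45a and Rny1 by over 1.5 times, with their signs kept. With 2 arrays a side, differences near the spread between media cannot be resolved.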
